A study of Mus musculus with 16 samples.

Results

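A gene with alternative promoters can start its transcripts at more than 1 place, and each place can be open or closed chromatin on its own. The genes described here are the 266 protein-coding genes with listed ATAC-seq peaks at 2 or more promoters whose start sites lie at least 10 kb apart. They were taken from 1926 protein-coding genes whose annotated start sites span 10 kb or more, so 13.8% of those genes had 2 or more listed promoters. The genes hold 568 promoters and 804 promoter peaks, of 10357 listed peaks within 1 kb of a protein-coding start site and 80367 listed peaks in all.

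The peaks came from lung tumors of mice with floxed alleles (fl/fl) of *Rb*, *p53* and *p130* and a *Hes1* GFP/+ reporter, a model of small cell lung cancer (SCLC) in which an adenovirus with Cre under the CMV promoter deletes these 3 tumor suppressor genes. GFP is made from the endogenous *Hes1* locus, a Notch target, and both groups carry the same deletions and the same reporter allele. Cells sorted as GFPhigh are the non-neuroendocrine (non-NE) cells and cells sorted as GFPneg are the neuroendocrine (NE) cells. The 8 libraries, 4 of GFPhigh and 4 of GFPneg cells, came from the pooled tumors of each of 3 mice, with 2 library pairs from 1 of the mice, and each library was run on 2 lanes. Per the study's methods, Cre was given to young adult mice of both sexes and the tumors were taken several months later.

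A peak was called opened when the authors listed it as more accessible in GFPhigh than in GFPneg cells, and closed when they listed it as less accessible. The genes were chosen by these listings, so their directions are a description and no test was made on them. Beside the authors' test results, which were not used, the files give 1 signal value per peak and none per library. It is the mean normalized count over all libraries, so no value below has an SD or a number of replicates. This count is not scaled for peak width, and promoters are called strong or weak by it alone. Intervals are 95% Wilson intervals and cover counting error over genes or peaks only. In sorted bulk cells, a larger share of cells with an open site and a more open site in each cell cannot be told apart.

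The sort was checked on marker genes, none of which is among the 266 genes. Of 18 NE markers, 15 had closed promoter peaks only, 1 (*Nkx2-1*) had opened peaks only and 2 had none. Of 16 club and epithelial markers, including *Hes1*, 14 had opened promoter peaks only and 2 had none. Of 10 leukocyte markers, 2 (*Cd68* and *Cd14*) had opened peaks and 8, *Ptprc* among them, had none. Of 8 endothelial markers 1 had opened and 2 had closed peaks, and of 8 fibroblast markers 1 had opened and 2 had closed peaks. The part of other cell types in the results below was not tested.

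Alternative promoters give transcripts with different first exons. Where the coding sequence starts in that exon, the proteins differ at their N terminus, and an internal promoter can leave out whole domains. Where it starts in a shared exon, the leader of the RNA differs and the protein can be the same, unless later exons differ too. Promoters rich in CpG dinucleotides are often active in many tissues, and promoters poor in CpG are more often tissue-specific.

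In 65 of the 266 genes (24.4%, interval 19.7 to 29.9%) at least 1 promoter opened, another promoter of the same gene closed, and no promoter held both directions. The sequences just upstream of the opposing promoters are shown for *Adgrv1*, *Dclk1*, *Spag9* and *Stox2*, the 4 with the highest counts at the weaker of their 2 opposing promoters. Each run is the 200 bases before the most upstream annotated start of the promoter, 5′ to 3′ on the strand of the gene, in mm10 coordinates and outside annotated exons. Capitals mark CpG dinucleotides.

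Adgrv1 opened promoter, chr13:81351627-81351826, minus strand: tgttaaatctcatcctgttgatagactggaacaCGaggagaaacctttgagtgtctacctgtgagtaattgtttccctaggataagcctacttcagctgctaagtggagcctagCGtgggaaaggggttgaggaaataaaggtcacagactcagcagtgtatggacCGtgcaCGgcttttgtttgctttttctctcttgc
Adgrv1 closed promoter, chr13:81633155-81633354, minus strand: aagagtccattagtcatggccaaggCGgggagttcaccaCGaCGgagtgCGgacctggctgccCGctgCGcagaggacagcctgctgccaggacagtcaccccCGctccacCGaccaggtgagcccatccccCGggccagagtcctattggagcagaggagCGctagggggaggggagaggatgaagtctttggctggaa
Dclk1 opened promoter, chr3:55242164-55242363, plus strand: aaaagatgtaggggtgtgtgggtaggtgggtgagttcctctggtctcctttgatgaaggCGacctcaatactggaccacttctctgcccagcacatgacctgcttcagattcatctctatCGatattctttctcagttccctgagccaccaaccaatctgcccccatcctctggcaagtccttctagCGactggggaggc
Dclk1 closed promoter, chr3:55461528-55461727, plus strand: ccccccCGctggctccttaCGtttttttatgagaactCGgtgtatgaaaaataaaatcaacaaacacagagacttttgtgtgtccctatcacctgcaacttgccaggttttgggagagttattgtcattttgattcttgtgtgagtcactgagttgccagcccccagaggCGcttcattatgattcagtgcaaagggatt
Spag9 opened promoter, chr11:93995903-93996102, plus strand: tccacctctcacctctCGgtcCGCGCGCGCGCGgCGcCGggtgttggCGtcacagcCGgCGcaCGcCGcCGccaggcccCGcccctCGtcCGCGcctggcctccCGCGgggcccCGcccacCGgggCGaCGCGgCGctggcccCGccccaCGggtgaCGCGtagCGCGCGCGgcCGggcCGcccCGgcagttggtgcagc
Spag9 closed promoter, chr11:94044005-94044204, plus strand: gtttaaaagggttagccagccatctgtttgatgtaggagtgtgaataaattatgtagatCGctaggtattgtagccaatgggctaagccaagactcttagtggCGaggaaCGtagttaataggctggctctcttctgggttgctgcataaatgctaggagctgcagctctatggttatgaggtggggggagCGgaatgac
Stox2 opened promoter, chr8:47413838-47414037, minus strand: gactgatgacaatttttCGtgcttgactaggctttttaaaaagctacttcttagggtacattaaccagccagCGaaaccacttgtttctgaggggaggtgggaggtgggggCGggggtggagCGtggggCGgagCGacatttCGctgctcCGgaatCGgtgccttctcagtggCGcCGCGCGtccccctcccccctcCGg
Stox2 closed promoter, chr8:47289403-47289602, minus strand: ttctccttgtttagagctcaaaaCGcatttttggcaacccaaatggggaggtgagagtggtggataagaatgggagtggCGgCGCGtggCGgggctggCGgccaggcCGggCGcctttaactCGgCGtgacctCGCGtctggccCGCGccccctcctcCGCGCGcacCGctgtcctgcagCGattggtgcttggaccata

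These runs show how unlike the sequences just upstream of the 2 promoters of a gene can be, and they are not centred on the peaks. The opened promoter of *Spag9* held 38 CpG sites in 200 bases and the closed one 4. In *Stox2* both promoters were rich in CpG, with 14 sites at the opened and 19 at the closed promoter. In *Adgrv1* the order was turned, with 4 sites at the opened and 10 at the closed promoter. The *Dclk1* runs held 3 and 4 sites, and the opened run overlaps parts of both listed opened peaks of that promoter. Around the peak centres, the CpG ratios (defined below) at the opened and closed promoter were 0.93 and 0.41 in *Spag9* and 0.81 and 1.21 in *Stox2*. They were 0.47 and 0.53 in *Adgrv1* and 0.75 and 0.53 in *Dclk1*.

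*Tead1* encodes a DNA-binding partner of the coactivator YAP. Its upstream promoter opened, with a mean normalized count of 324 at the larger of 2 peaks, and a second promoter 62.7 kb into the gene closed, with a count of 30.7. The transcripts of both promoters share their first coding base and give longest proteins of equal length, 436 residues, whose sequences were not compared. Both other listed peaks within 10 kb of the closed promoter were closed too, and the opened promoter also lies within 1 kb of a start of 2310014F06Rik. The closed promoter rests on a weak peak and on a transcript model below the best support level: *Tead1* was not among the opposing genes when only peaks with a count of 50 or more, or only transcripts of support level 1, were used. *Tead4*, a paralog, had 2 promoters 25.2 kb apart that both opened, with counts of 480 and 22.9. *Ptpn14*, a phosphatase that binds YAP, also had both promoters opened, with counts of 442 and 48. These 3 genes are all of the Hippo list that qualified, out of 27 genes on the list and 9 with start sites far enough apart. No gene of the Notch list qualified, out of 33 genes and 4 with start sites far enough apart.

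*Dclk1* encodes a microtubule-binding kinase. Its upstream promoter, which gives the long form of 756 residues with the doublecortin domains, opened with a count of 177 (chr3:55242333-55243005). Its internal promoter 219 kb downstream, which gives short forms of up to 452 residues, closed with a count of 153 (chr3:55461567-55462117). The ratio of the counts, opened over closed, was 1.15, and both other listed peaks around each of the 2 promoters were opened. *Dctn1*, the large dynactin subunit of the dynein motor, had the same layout: the promoter of the 1264-residue form opened with a count of 168, and the promoter of the 1142-residue form, 20026 bp downstream, closed with a count of 90. *Map4*, a microtubule-associated protein, had an opened first promoter with a count of 948 and 2 closed promoters inside the gene, with counts of 8.5 and 77. The longest proteins of the 3 promoters have 1125, 933 and 414 residues.

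*Adgrv1*, a very large adhesion receptor, went the other way. Its first promoter closed with a count of 927 and gives a protein of 6298 residues. A middle promoter closed with a count of 35.1, and the last promoter, 282 kb from the first, opened with 568 and gives only 318 residues. *Oxr1*, a gene of the oxidative stress response, likewise had a strong first promoter that closed, with a count of 807, and a promoter 341 kb downstream that opened with 133. That opened peak also lies within 1 kb of a start of Gm26854, and all 4 other listed peaks around it were closed. *Oxr1* was not among the opposing genes without peaks near a second gene, or where the peak had to overlap the start site. *Spag9*, a scaffold of JNK signalling, had an opened first promoter with a count of 463 and a closed one 48.1 kb downstream with 150, for proteins of 1307 and 1169 residues. *Stox2*, a winged helix gene, had 225 at an opened first promoter and 146 at a closed one 124 kb downstream, for proteins of 927 and 926 residues that start at different coding bases.

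The gene lists below do not hold every gene of their kind, and are read beside the shares over all 266 genes, of which 49.2% were all opened, 21.1% all closed and 24.4% opposing. The list of kinase and phosphodiesterase genes held 11 members, out of 60 with start sites far enough apart, with 6 all opened, 1 all closed and 4 opposing. Of all 254 genes on it, 107 had only opened and 38 only closed promoter peaks. Of the phosphodiesterases that break down cAMP, *Pde4d* had 4 promoters over 1273 kb that were opened, closed, opened and closed in the order of transcription, with counts of 66.7, 220, 19.8 and 18. The models of the 2 middle promoters begin at their first coding base, so their true starts are not known, and without them the first and last promoters, with 66.7 and 18, are the opposing ones. *Pde4b* had 3 promoters, opened, closed and opened, with counts of 9.09, 68.7 and 188, and the closed middle promoter gives a protein of 161 residues against 721 and 564. *Prkacb*, a catalytic subunit of the cAMP-dependent kinase, had an opened first promoter with a count of 24.6 and a closed one 10.6 kb downstream with 62.9. The 1 other listed peak near that opened promoter was closed. *Prkacb* was not among the opposing genes with start sites 20 kb or 50 kb apart or with a count of 50 or more. It was also lost where the peak had to overlap the start site. *Met*, the receptor of hepatocyte growth factor, had a strong opened first promoter with a count of 577 and a closed peak of 53.9 near a start 27.4 kb downstream. The downstream *Met* model begins at its first coding base, so its true start is not known. All 4 other listed peaks within 10 kb of that start were opened, and without such models *Met* was not among the opposing genes.

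The list of small GTPase regulators held 15 of the 266 genes, out of 54 on it with start sites far enough apart. Of the 15, 6 had all promoters opened, 1 all closed, 7 opposing and 1 both directions at 1 promoter, and of all 157 genes on the list 51 had only opened and 17 only closed promoter peaks. *Arhgef7*, an exchange factor for Rac and Cdc42, had a closed first promoter with a count of 134 and an opened promoter 30.2 kb downstream with 283. The proteins of these 2 promoters start at different coding bases and have 782 and 705 residues. *Arhgef17* had an opened first promoter with a count of 362 (2057 residues) and a closed internal one with 56 (1048 residues). *Iqsec1*, an ARF exchange factor, had 3 promoters, opened, closed and opened, with counts of 582, 61.6 and 278. *Cyth1*, an ARF exchange factor that is not on this list, had an opened first promoter with 552 and a closed one 35.9 kb downstream with 83.3. *Psd4* had a closed first promoter with a count of 37.1 and an opened one with 72, and both give 1005 residues. Under 15 alternative settings, given in the closing section, *Psd4* was not opposing in 5 and *Cyth1* in 4.

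The list of cytoskeleton linker and tropomyosin genes held 13 of the 266 genes, out of 43 on it with start sites far enough apart, and other cytoskeleton genes such as *Dctn1* and *Lmna* are not on it. Of the 13, 4 were all opened, 1 all closed, 7 opposing and 1 had both directions at 1 promoter, beside 65 opposing of all 266, and of all 115 genes on the list 36 had only opened and 20 only closed promoter peaks. *Dclk1* and *Map4* are 2 of the 7. *Sorbs2*, an adaptor of actin stress fibers, had a closed first promoter with a count of 127 (1196 residues) and an opened one 30.9 kb downstream with 132 (623 residues), and these 2 proteins share their first coding base. *Myo1h*, a class I myosin, had a closed first promoter with a count of 67.5 (1038 residues) and an opened one with 113 (222 residues).

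The 3 large ankyrin genes, which encode adaptors between membrane proteins and spectrin, fell into 3 classes. *Ank3* had both promoters opened, with counts of 328 and 133. *Ank2* had all 4 promoters closed, with counts of 66.3, 59.9, 157 and 72.6 in the order of transcription, of which those with 66.3 and 157 rest on models that begin at their first coding base. *Ank1* had opposing promoters, but its opened peak had a count of only 6.14 and lay among 5 other listed peaks that were all closed, and its closed promoter had a count of 100.

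**Figure D1:**
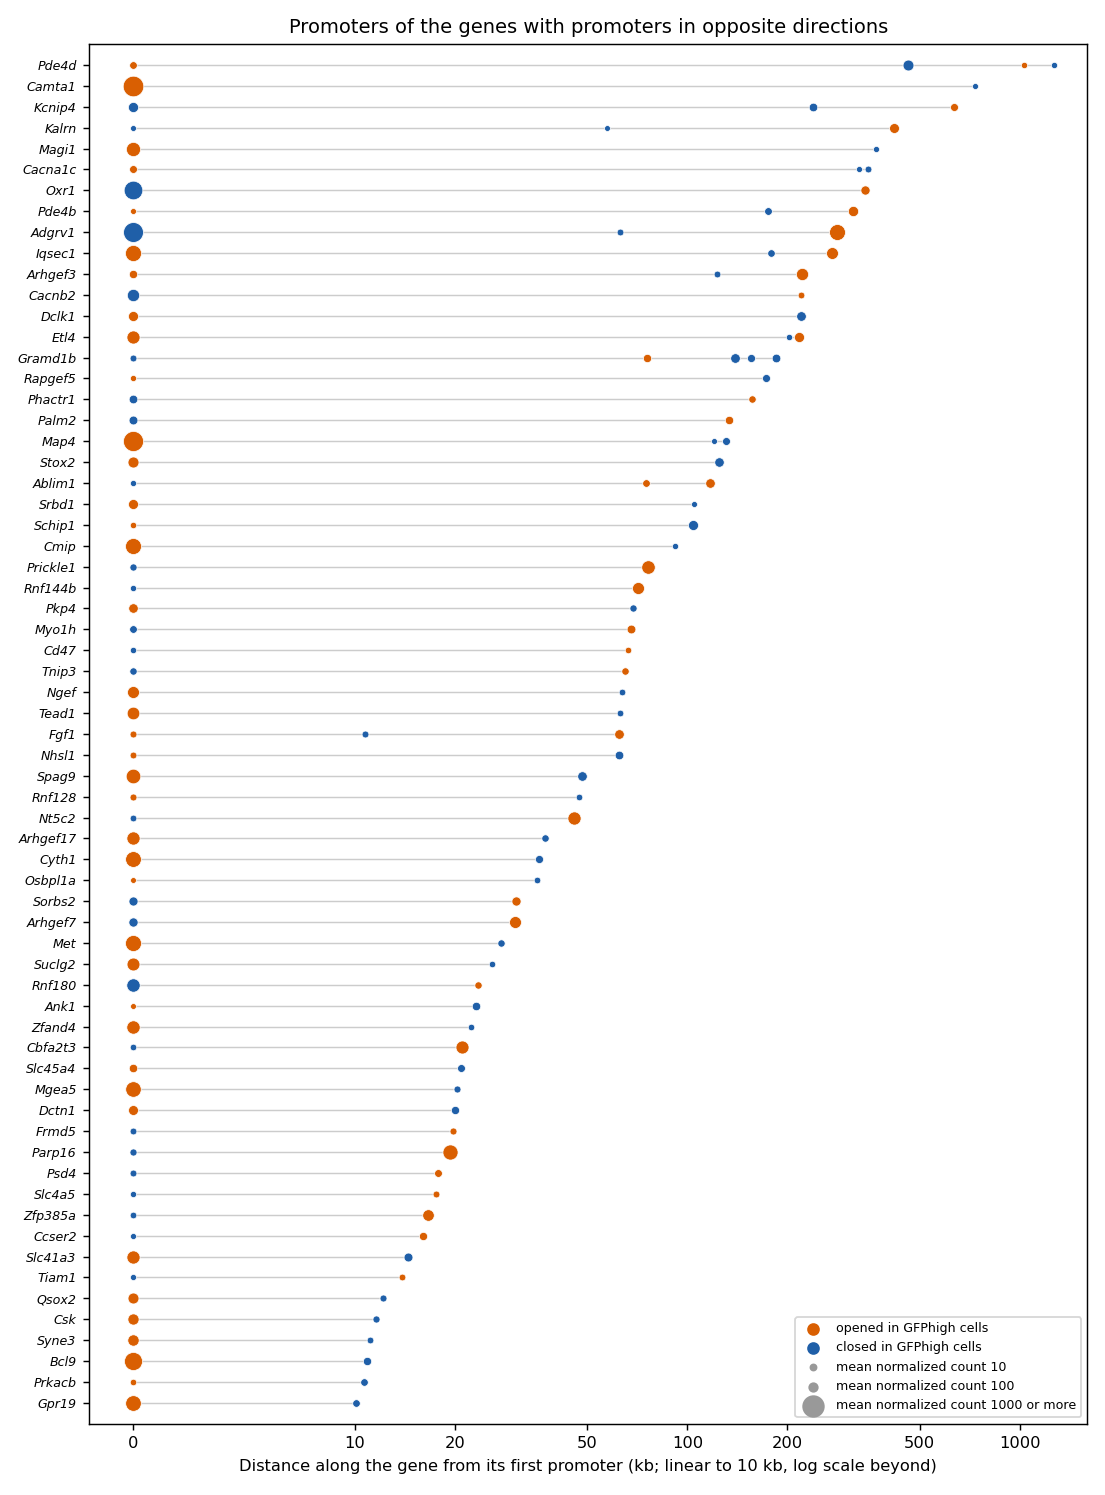
Promoters of the 65 genes with promoters in opposite directions. Each row is a gene, the horizontal axis is the distance in kb from its first promoter in the direction of transcription (linear to 10 kb, log scale beyond), color gives the direction in GFPhigh cells, and the area of a point grows with the mean normalized count up to 1000. The first promoter was opened in 39 of the genes, and both orders occur at short and at long distances.

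On the list of ion channel genes, 5 of 39 with start sites far enough apart had alternative listed promoters, with 2 all closed, 3 opposing and none all opened. Of all 248 genes on this list, 76 had only closed and 38 only opened promoter peaks. *Cacnb2*, a regulatory subunit of voltage-gated calcium channels, had a closed first promoter with a count of 305 and an opened one 220 kb downstream with 32.9. The closed peak also lies within 1 kb of a start of Gm10849, and *Cacnb2* was not among the opposing genes without peaks near a second gene or with a count of 50 or more. *Cacna1c*, the pore of an L-type calcium channel, had an opened first promoter with 74.5 and 2 closed promoters with 12.5 and 36.2, the first of which rests on a model that begins at its first coding base. *Kcnip4*, a partner of potassium channels, had 2 closed promoters with counts of 182 and 106 and an opened one 635 kb from the first with 78. On the list of transcription factor genes and their cofactors, 15 of 134 with start sites far enough apart qualified, with 10 all opened, 2 all closed and 3 opposing, and of all 831 on the list 277 had only opened and 80 only closed promoter peaks. Beside *Tead1* the opposing ones were *Cbfa2t3*, a corepressor with a closed first promoter of 27.6 and an opened one of 351, and *Zfp385a*, a zinc finger gene with a closed first promoter of 29.6 and an opened one of 259. Both calls depended on the settings: under 15 alternative settings *Cbfa2t3* was no longer opposing in 5, among them the one without peaks near a second gene, since its closed peak also lies near a start of Gm10612, and *Zfp385a* in 6. Over the 65 genes, the number of alternatives under which a gene stayed opposing had a median of 12, from 8 to 15.

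Other opposing genes with high counts at both promoters were *Bcl9*, a cofactor of β-catenin, with 754 at the opened and 92.8 at the closed promoter, and *Slc41a3*, a magnesium transporter, with 360 and 119. *Palm2* had a closed first promoter with 116 and an opened one with 95.9, and *Gpr19*, an orphan receptor, had 541 at an opened first promoter, which it shares with 2810454H06Rik, and 63.2 at a closed one. *Slc45a4* had 100 at the opened and 75.8 at the closed promoter, and both were poor in CpG, with ratios of 0.05 and 0.11 (defined below). *Gramd1b*, which moves sterols between membranes, was the gene with the most promoters: the second of 5 opened with a count of 92.4, and the other 4 closed with counts of 37.4, 152, 83.7 and 108. *Pkp4*, a plakophilin of cell junctions, had an opened first promoter with 148 and a closed one with 49.9. The list of junction and epithelial adhesion genes held 2 members, out of 25 with start sites far enough apart, *Pkp4* and the all-opened *Itgb5*. *Magi1*, a scaffold of tight junctions, had 434 at the opened first promoter and 14.6 at a closed one 370 kb downstream. Of the genes in this paragraph, *Bcl9*, *Slc45a4*, *Gramd1b*, *Pkp4* and *Magi1* were not opposing with peak centres within 500 bp. They were also lost where the peak had to overlap the start site, while *Slc41a3*, *Palm2* and *Gpr19* stayed opposing under both settings.

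Over the 65 genes, taking for each the opened and the closed promoter with the highest count, the opened promoter lay upstream in 37 and the closed one in 28. The opened promoter had the higher mean normalized count in 50 of 65 pairs (76.9%, interval 65.4 to 85.5%). The medians were 177 (quartiles 72 to 362) for opened and 49.9 (28.4 to 107) for closed promoters. This difference is not particular to pairs: over all listed promoter peaks of protein-coding genes the medians were 169 for opened and 40.7 for closed peaks. The count was higher by 5-fold or more at the opened promoter in 30 pairs and at the closed one in 7, and the other 28 were within that range. These counts are not scaled for peak width. Over all genes described here, opened promoter peaks were wider, with a median of 413 bp against 264 bp for closed ones. How much of the difference in count goes with width was not tested. *Camta1* was at 1 end, with 1564 at its opened and 11.3 at its closed promoter, and *Ank1* at the other.

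The distance between the opposing promoters had a median of 62.3 kb, from 10.1 kb in *Gpr19* to 732 kb in *Camta1*. In 48 of 65 pairs the annotated coding sequences start at different bases, and in 17 they share their first coding base. The opened promoter gave the longer protein in 29 pairs, the closed one in 25, and in 11 the lengths were equal. Of the 37 pairs with the opened promoter upstream, the upstream promoter gave the longer protein in 27, and of the 28 with the closed promoter upstream, in 19. The upstream promoter was thus more often the one with the longer protein in both orders.

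The CpG ratio is the number of CpG sites over the number that the C and G content alone would give, here in the 300 bases around the peak centre. It was higher at the opened promoter in 41 of 65 pairs (63.1%, interval 50.9 to 73.8%), with medians of 0.70 at opened and 0.38 at closed promoters. The difference within a gene had a median of 0.13 with quartiles of -0.14 and 0.58, so many single genes went the other way. At a ratio of 0.6 or more, 29 pairs were rich only at the opened promoter, 9 only at the closed one, 8 at both and 19 at neither. Over all listed promoter peaks the medians were 0.76 for opened and 0.53 for closed peaks. The median difference depended on the settings: it was 0.05 with start sites 20 kb apart, 0.03 with 50 kb, 0.03 where the peak had to overlap the start site and 0.00 with a count of 50 or more, where 26 genes were opposing.

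**Figure D2:**
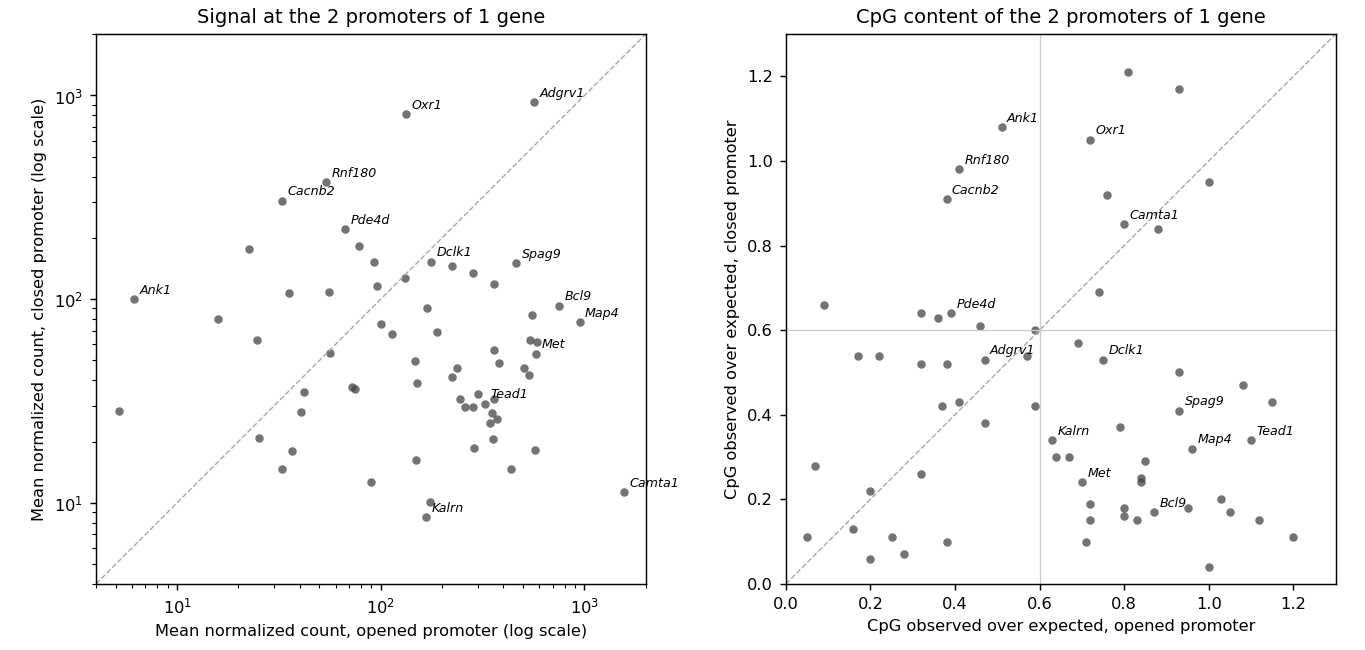
The opened (horizontal axis) and the closed promoter (vertical axis) of each of the 65 genes. Left, mean normalized count on log axes; 50 points lie below the dashed line of equal counts. Right, the CpG observed over expected ratio without unit; 41 points lie below the dashed line of equal ratios, and the grey lines mark a ratio of 0.6.

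Other listed peaks near these promoters, none of them at a protein-coding start, were mixed in direction. Within 10 kb of the opened promoters, 49 of 82 such peaks were opened (59.8%, interval 48.9 to 69.7%), and within 10 kb of the closed promoters 54 of 81 were closed (66.7%, interval 55.9 to 76%). Where the promoters of a pair lie close together, a peak can be on both sides, so these sets can share peaks. In genes whose promoters went 1 way these shares were higher, 84.1% of 395 peaks opened around all-opened genes and 92.9% of 99 peaks closed around all-closed genes. These peaks come from the same comparison as the promoters and are given as a description.

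The strings CATTCC (TEAD), TGANTCA (AP-1), TTCCCA (RBPJ) and TGTTTAC (FOX) were looked for on both strands in the same 300 bases. CATTCC occurred in 11 of 65 opened and 11 of 65 closed promoters of the opposing genes, 16.9% each, and in 12.9% of all opened and 11.3% of all closed promoter peaks. TGANTCA occurred in 4 opened and 7 closed promoters of the opposing genes (6.15% and 10.8%), beside 5.38% and 13.5% of all opened and closed promoter peaks. TTCCCA occurred in 26.2% of the opened and 29.2% of the closed promoters of a pair, beside 20.7% and 22% over all promoter peaks. TGTTTAC occurred in 2 opened and 4 closed promoters, beside 3.11% and 3.75%. A string match is not a bound site.

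The remaining genes went 1 way, 131 of 266 with all promoters opened (49.2%) and 56 with all closed (21.1%), while 14 (5.26%) had both directions within 1 promoter. Of the 804 peaks 62.8% were opened (interval 59.4 to 66.1%). By comparison, 50.8% of all listed peaks and 74.3% of all listed promoter peaks were opened, and nothing is read from these shares, since the listing chose the genes.

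The all-opened genes with the highest count at their weaker promoter were *Adk* (adenosine kinase), *Bicdl1*, *Lmna*, *Hnrnpf*, *Epb41* and *Taok3*. *Lmna*, which encodes the nuclear lamins A and C, had counts of 432 and 456 at promoters 10023 bp apart, for proteins of 665 and 462 residues. *Adk* had 568 and 668, *Bicdl1* had 515 and 692, *Hnrnpf*, an RNA-binding protein gene, had 583 and 427, *Taok3*, a kinase gene, had 457 and 394, and *Epb41*, a linker of spectrin and actin, had 576 and 410. The list of genes known for alternative promoters held 76 genes, of which 49 had start sites far enough apart and 16 qualified, with 6 all opened, 4 all closed, 5 opposing and 1 with both directions at 1 promoter. On it, *Pparg*, the nuclear receptor of adipocyte differentiation, had both promoters opened with counts of 93.4 and 37.8, and the downstream one gives the longer protein, 505 against 475 residues. *Nfix* (169 and 21.9), *Foxp1* (242 and 193) and *Tcf7l2* (367 and 24.2), all transcription factor genes, and *Dlc1* (31.4, 36.5 and 454), a GTPase-activating protein gene, were opened at each promoter. *Nedd4l*, a ubiquitin ligase, had 4 opened promoters with counts of 385, 30.1, 138 and 77.8.

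The all-closed genes with the highest count at their weakest promoter were *Zscan18*, *Kcnn2*, *Sybu*, *Ndrg4*, *Satb1* and *Cntnap2*. *Zscan18*, a zinc finger gene, had counts of 203 and 170, *Satb1*, a chromatin organizer, had 130 and 166, *Ndrg4* had 137 and 204, and *Cntnap2*, an axonal adhesion gene, had 188 and 101. *Kcnn2*, a calcium-activated potassium channel, had counts of 143 and 410, the latter at a model that begins at its first coding base, and *Sybu*, which encodes the transport adaptor syntabulin, had 374 and 138. The list of neuronal adhesion and synapse genes held 10 members, out of 43 with start sites far enough apart, of which 7 were all closed (*Cntn4*, *Cntnap2*, *Magi2*, *Nlgn1*, *Rims2* and *Tenm4* among them), 2 all opened (*Dlgap4* and *Plxnb2*) and 1, *Magi1*, opposing. *Bdnf*, a neurotrophin with many first exons, had 2 closed promoters with counts of 45.8 and 46. *Nrg1*, a ligand of ERBB receptors, had 3 closed promoters with counts of 90.4, 46.3 and 101.

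All-closed genes were longer between their first and last promoters, with a median of 71.5 kb (quartiles 25 to 314) against 29 kb (16.1 to 64.2) for all-opened and 62.5 kb (20.8 to 157) for opposing genes. Their promoters had a median count of 59.9, against 170 in all-opened genes, while the CpG ratios were close, 0.61 and 0.66. The first promoter had the highest count in 58.8% of all-opened and 58.9% of all-closed genes. The strongest promoter of a gene exceeded the weakest by a median of 3.23-fold in all-opened and 2.53-fold in all-closed genes.

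**Figure D3:**
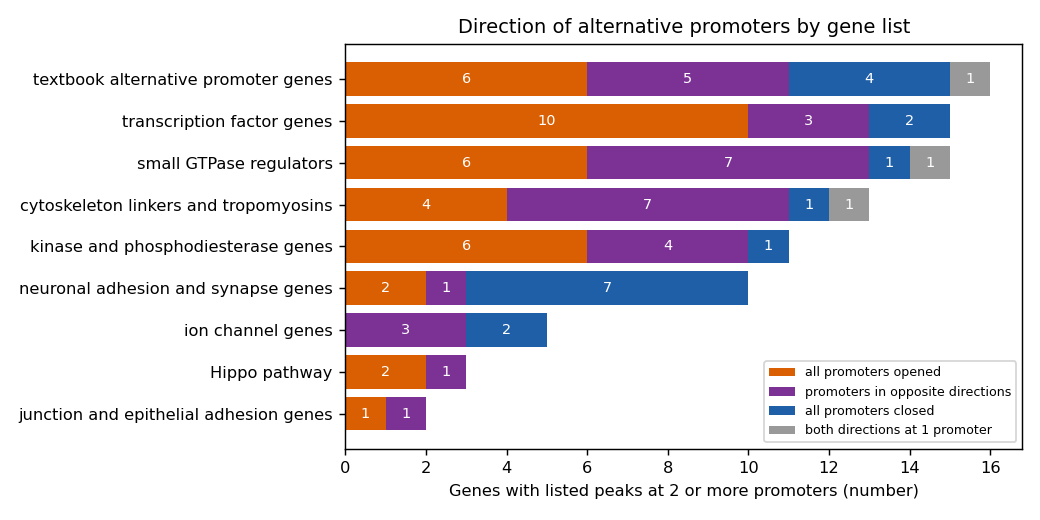
Number of genes with listed peaks at 2 or more promoters in each gene list, split by the direction of their promoters. Genes may be on more than 1 list. All-closed genes were 7 of 10 on the neuronal adhesion and synapse list, 1 of 13 on the cytoskeleton list and 1 of 15 on the GTPase regulator list, beside 56 of all 266. Of all genes on these lists, qualifying or not, 68 of 239, 20 of 115 and 17 of 157 had only closed promoter peaks, and 42, 36 and 51 only opened ones.

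Opposing directions over such distances were also looked at between genes. Of 245 pairs of adjacent promoters of 1 gene that lay 10 to 200 kb apart, 60 were opposing (24.5%, interval 19.5 to 30.2%). Of 4359 pairs of neighbouring genes outside the 266, with 1 direction each and listed promoters the same distance apart, 688 were opposing (15.8%, interval 14.7 to 16.9%). The sets differ in make-up, since 86.4% of the promoters of the neighbouring genes were opened against 67.3% in the pairs of 1 gene, and the more even a mixture, the more opposing pairs it can hold. Between neighbouring genes the share was 9.52% at 10 to 20 kb, 11.1% at 20 to 50 kb, 18% at 50 to 100 kb and 23.2% at 100 to 200 kb. Within genes it was 22.9%, 17.2%, 32.7% and 36.7% from the shortest to the longest of the 4 distance classes, and the intervals of these classes overlap one another. Against neighbouring genes the intervals did not overlap at 10 to 20 kb and 50 to 100 kb, and did at the other distances. What part of this goes with the unlike make-up of the sets was not tested.

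**Figure D4:**
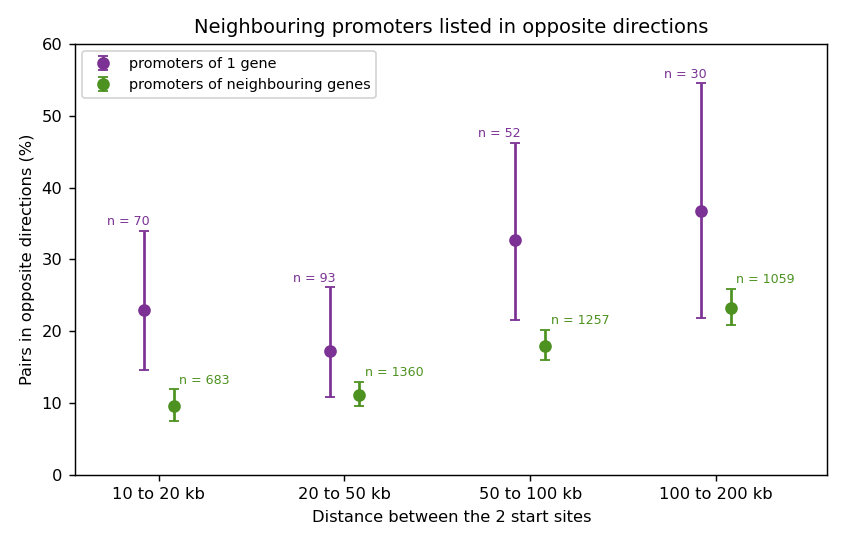
Percentage of adjacent promoter pairs listed in opposite directions against the distance between their start sites, for promoters of 1 gene and of neighbouring genes. Points are shares, bars are 95% Wilson intervals (counting error only) and n is the number of pairs. At 10 to 20 kb the shares were 22.9% and 9.52%.

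The limits of the rule fell between close neighbours. Just inside the 10 kb limit between first and last promoter were *Lmna* (10023 bp), *Gpr19* (10093 bp) and *Plxnb2* (10100 bp). Just outside, by the widest distance between starts with a listed peak, were *Elmo2* (9576 bp), 1500011B03Rik (9484 bp) and *Grb2* (9290 bp). The peaks of the 266 genes nearest to the limit of 1 kb from centre to start were at *Phf21a* (994 bp), *Creb5* (990 bp) and *Limk2* (988 bp), and the next genes to qualify with a wider limit were *Auts2* (1001 bp), *Ncoa7* (1022 bp) and *Capn5* (1035 bp). Of the 1926 genes with start sites far apart, 892 had no listed peak at any start and 768 had listed peaks at 1 promoter only. Peaks that were not listed were not analysed here, so in those genes the direction of the other promoters is unknown.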

How the data were processed

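Chromatin accessibility was measured by ATAC-seq in 16 runs of 8 libraries, 8 runs of GFPhigh and 8 of GFPneg cells, grouped by the labels. Per the study's methods and the submitters' processing notes, the authors trimmed the reads, mapped them to mm10 with Bowtie2 2.3.4.1, removed duplicates, called narrow peaks with MACS2 with reads shifted around the Tn5 cuts, merged the peaks of all samples, counted reads per peak and compared the groups with DESeq2 1.28.1. The deposited lists hold the peaks that passed the limits the authors set, as 1 list per direction. Each deposited peak carries 1 signal value, which the authors obtained by averaging size-factor-scaled read counts across the libraries. The depth per library is unknown, and this mean has no SD or n. The other columns hold the authors' log2 fold changes, standard errors, test statistics and p-values, which were not used.

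Start sites came from the basic GENCODE M21 annotation (GRCm38, the assembly of mm10), and all peaks lie inside its chromosomes. Starts of protein-coding transcripts with a peak centre within 1 kb were grouped from the most upstream one, with a new promoter at 10 kb or more from the first start of the last. A promoter is described by its peak with the highest count and by the longest protein of its starts, and a pair by the opened and the closed promoter with the highest count. Sequences were read from GRCm38.p6. Some sequences and values that the rules below select are not reported here. The grouping was tested on simulated coordinates. Computations used Python 3.11.15, numpy 2.4.6, pysam 0.24.0 and matplotlib 3.10.9. No test was made, since the direction chose the genes. In the number of peaks, a peak near 2 genes was counted once. In the numbers of promoters and genes it counted for each gene that held it.

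Named genes were the members of the marker, Notch, Hippo and textbook alternative promoter lists, the 20 opposing genes with the highest count at the weaker promoter of the pair, 6 all-opened and 6 all-closed genes ranked by the lowest count, genes with 4 or more promoters and up to 4 opposing genes of each other list. Genes named outside these rules were chosen with their values known: *Camta1*, *Ngef*, *Nt5c2*, *Itgb5*, the genes next to the limits, the genes with both directions at 1 promoter other than *Plec*, and *Cntn4*, *Dlgap4*, *Magi2*, *Nlgn1*, *Plxnb2*, *Rims2* and *Tenm4* of the neuronal list. The genes and lists were chosen with earlier results of these data known. Alternatives are given in the closing section.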

Additional observations from a re-analysis of the deposited data

How the results depend on the processing

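The 6 summary values (the number of genes, the number and share with opposing promoters, the share of peaks opened, the share of opposing genes with an opened first promoter, and the median CpG difference) were recomputed under 15 alternatives, 3 of them chosen after the data were seen. Of the 90 values, 71 stayed within 1.5 times the main count or median difference or within the interval of the main share, and 19 did not. A reversal was defined for the median CpG difference only, and it did not reverse. The settings with all basic transcripts and with autosomes and X only gave all 6 main values again, so their values could not differ here. The median CpG difference, 0.13, was 0.05 with start sites 20 kb apart, 0.03 with 50 kb, 0.03 where the peak had to overlap the start site and 0.00 with a count of 50 or more. The first promoter was opened in 60% of opposing genes and in 56.2 to 64.3% under the alternatives.

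The number of genes, 266, was 115 with start sites 50 kb apart, 140 where the peak had to overlap the start site, 147 with a mean normalized count of 50 or more and 148 with transcripts of support level 1. The number of opposing genes, 65, was 43 and 99 with peak centres within 500 bp and 2 kb, 32 with 50 kb, 27 with overlap, 26 with a count of 50 or more and 37 with support level 1. Their share was 19.3% with overlap and 17.7% with a count of 50 or more. The share of peaks opened was 50.4% with 50 kb, 72.4% with overlap and 77.7% with a count of 50 or more. These settings keep fewer or more peaks and starts by construction, and what else moves the shares was not tested.

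*Adgrv1*, *Dclk1*, *Map4* and *Pde4d* were opposing under all 15 alternatives. *Arhgef7*, *Slc41a3* and *Spag9* were lost only with wider separation or, for *Spag9*, with its chromosome 11 left out.

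No paired analysis was possible because the files hold no value per library and no result comes from a test. Leaving out each replicate was not run for the same reason.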

Other observations

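Both directions were listed within 1 promoter in 14 genes: *Asap1*, *Ccdc162*, *Dmtn*, *Espn*, *Gpsm1*, *Limk2*, *Nudt3*, *Pisd*, *Plec*, *Slc25a25*, *Spsb1*, *Synpo*, *Tbc1d14* and *Usp2*. *Plec* encodes plectin, a linker of intermediate filaments whose many first exons give different N termini. Its first and last promoters were opened, with mean normalized counts of 187 and 105, and its middle promoter held 5 peaks of both directions.

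Of the opposing pairs, 5 opened and 5 closed promoters lay within 1 kb of a start of another gene. The closed peak assigned to *Nt5c2*, a nucleotidase gene, had a count of 32.3 and lay next to the start of *Ina*, which encodes a neuronal intermediate filament, and the opened *Nt5c2* promoter had a count of 362. The opened peak assigned to *Ngef* lay next to a start of *Neu2*. A peak at such a place cannot be assigned to 1 of the 2 genes from its position.

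A listed peak near an annotated start shows accessibility and not transcription. Of the 568 promoters, 71% had a transcript of support level 1, and 16 had only models that are cut at the 5′ end or begin at their first coding base. All counts are means over both groups, so a low count can stand for a site open in 1 group only.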
